A study of Mus musculus with 12 samples.

Results

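The genes described here are 10 receptors of the TNF receptor superfamily, namely *Tnfrsf4* (OX40), *Tnfrsf18* (GITR), *Tnfrsf9* (CD137), *Tnfrsf8* (CD30), *Tnfrsf25* (DR3), *Cd27*, *Tnfrsf1a* (TNFR1), *Tnfrsf1b* (TNFR2), *Ltbr*, and *Tnfrsf26*. They were taken by symbol, from a list chosen with earlier results of these data known. All 10 were found among the 32051 genes measured by RNA-seq. The cells were Th9 cells, a helper subset that secretes IL-9, cultured from naive CD4+ T cells that were isolated from spleens of C57BL/6J mice, on plate-bound anti-CD3 with soluble anti-CD28, 10 ng/mL IL-4, 1 ng/mL TGF-β, and antibodies that neutralize IL-12 and IFN-γ. All 4 groups shared this culture and were harvested on day 4, with 3 replicates each. The DMSO group received the vehicle, the EpA group 10 μM of EpA, a cyclic lipopeptide from a fungus, the group labelled DMSO+fato 5 μM fatostatin, which blocks the activation of SREBP, and the EpA+fato group both compounds. The fatostatin groups are called fatostatin and EpA and fatostatin below. The study calls its Th9 RNA-seq samples independent but does not say whether they came from separate mice or cultures, so the p-values measure the spread between these samples, which may be technical. The comparisons ask how EpA changed these receptors, how fatostatin did, and whether the effect of EpA differed when fatostatin was present.

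Receptors of this superfamily have cysteine-rich extracellular domains and bind trimeric ligands of the TNF family, many of which sit on antigen-presenting cells or on activated T cells. OX40, GITR, CD137, CD30, and CD27 recruit TRAF adaptors and costimulate T cells, and most of them are induced by T cell receptor signaling, whereas CD27 is already present on naive T cells. TNFR1 and DR3 carry a cytoplasmic death domain that recruits TRADD, and TNFR2, which lacks it, binds the same TNF. OX40 ligand and the ligand of DR3 are known to promote the differentiation of Th9 cells.

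Levels are given in FPKM, reads scaled by the length of the gene and the size of the library, so that genes of different length can be compared. The libraries held 36607303 to 44375791 reads on genes, which differed by a factor of 1.21 at most, and 1 read on a gene of 1 kb corresponded to 0.0225 to 0.0273 FPKM. The summed level of 5 CD4+ T cell markers (*Cd3e*, *Cd3d*, *Cd4*, *Lck*, and *Cd28*), all above 0 in every library, was 453.9 to 462 FPKM in DMSO libraries and 400.5 to 406 FPKM in EpA libraries. That of *Il9*, *Irf4*, and *Batf* was 283.4 to 290 FPKM in DMSO libraries and 857.8 to 891.4 FPKM in EpA libraries. Most of this rise was *Il9*, which went from 54.6 to 640.0 FPKM, while *Batf* went from 75.5 to 95.3 FPKM and *Irf4* fell from 156 to 143 FPKM (adjusted p = 0.00185 by limma). With fatostatin the first sum was 427.2 to 440.2 FPKM and the second 293 to 305.2 FPKM, and with both compounds they were 380.5 to 384.2 and 1053 to 1108 FPKM. The highest sums in any library were 1.185 FPKM for 3 B cell markers, 0.755 FPKM for 5 markers of myeloid and dendritic cells, and 0.307 FPKM for 3 NK cell markers. The 2 CD8 T cell markers summed to 6.98 to 10.2 FPKM. In RNA from whole cultures, fewer cells of a type and less RNA per cell cannot be told apart.

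The genes of OX40, CD30, GITR, and CD137 were the most abundant of the 10 in control Th9 cells. *Tnfrsf4* led with 166 ± 2.35 FPKM (SD, n = 3) and ranked 223 of the 13733 genes tested. *Tnfrsf8* followed with 94.6 ± 1.61 FPKM, then *Tnfrsf18* with 70.5 ± 2.59 FPKM and *Tnfrsf9* with 67.03 ± 0.764 FPKM, and the libraries of the last 2 overlapped. The TNF receptors were lower, with 25.9 ± 0.962 FPKM of *Tnfrsf1b* and 11.9 ± 0.454 FPKM of *Tnfrsf1a*. *Cd27* stood at 8.62 ± 0.621 FPKM, and *Tnfrsf25*, at 3.55 ± 0.3901 FPKM, could not be separated from *Tnfrsf26*, at 3.403 ± 0.179 FPKM. *Ltbr*, the lymphotoxin receptor that is known mainly from stromal and myeloid cells, came last with 0.324 ± 0.0302 FPKM and 28 to 44 reads per library. All 10 passed the minimum mean of 0.1 FPKM for testing. The order was the same in EpA-Th9 cells, where each receptor stood apart from the next. With fatostatin, *Tnfrsf18* stood above *Tnfrsf8*, and *Tnfrsf26*, by its mean, above *Tnfrsf25*, although the libraries of this last pair overlapped. With both compounds *Tnfrsf18* again stood above *Tnfrsf8*, which overlapped with *Tnfrsf9*, and *Tnfrsf25* stood above *Tnfrsf26*.

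**Figure D1:**
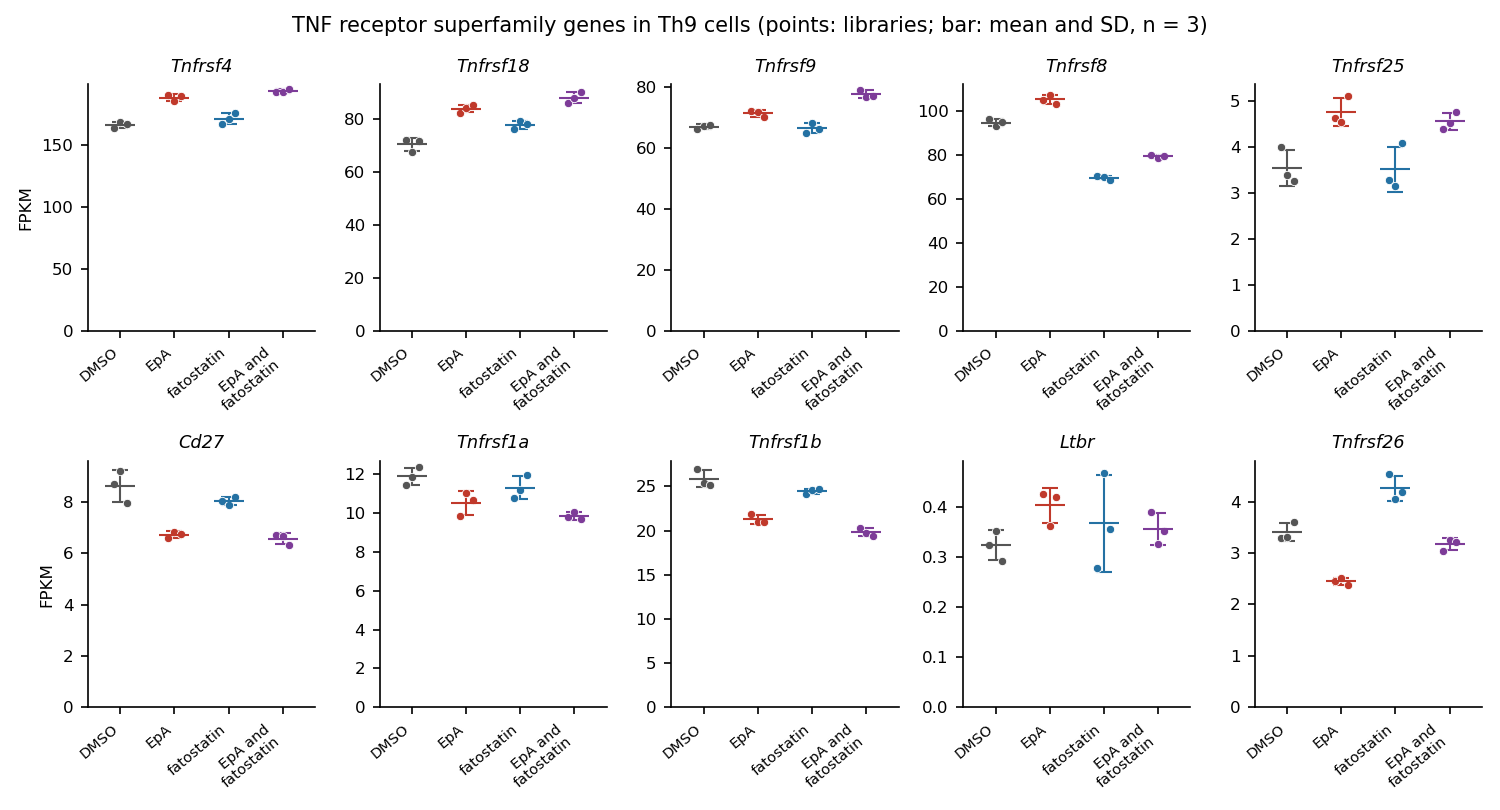
Level of each receptor gene in FPKM (vertical axis, from 0) in the 4 groups of Th9 cells (horizontal axis). Points are single libraries, and bars give the mean and SD of 3. *Tnfrsf4* lies at 163.8 to 195.3 FPKM, and *Tnfrsf8* is lowest in the fatostatin libraries, at 68.7 to 70.2 FPKM.

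Of the 10 genes, 6 lie on chromosome 4 of GRCm38. *Tnfrsf4* (ENSMUSG00000029075, 156013843 to 156016612) and *Tnfrsf18* (ENSMUSG00000041954, 156026164 to 156028895) lie on the plus strand, 9551 bp apart and with 0 protein-coding genes between them. *Tnfrsf1b* (ENSMUSG00000028599, 145213463 to 145246870) and *Tnfrsf8* (ENSMUSG00000028602, 145267137 to 145315164) form a second pair on the minus strand, 20.3 kb apart, again with 0 protein-coding genes between. *Tnfrsf9* (ENSMUSG00000028965, 150914562 to 150946102) and *Tnfrsf25* (ENSMUSG00000024793, 152115934 to 152120119) lie between these pairs. On chromosome 6, *Cd27* (ENSMUSG00000030336, 125232622 to 125237010), *Ltbr* (ENSMUSG00000030339, 125306571 to 125313885), and *Tnfrsf1a* (ENSMUSG00000030341, 125349362 to 125362484) are neighbors, 69.6 kb and 35.5 kb apart with 1 protein-coding gene in each gap. *Tnfrsf26* (ENSMUSG00000045362) is on the minus strand of chromosome 7 from 143607659 to 143628722. Exons overlap an opposite-strand gene at *Tnfrsf18* (414 bp with *Gm16008*) and at *Tnfrsf26* (107 bp with *E230032D23Rik*, which held 2 to 18 reads per library), and since the use of strand in counting is not stated, reads of these overlaps cannot be assigned to either gene. *Mir8113*, inside *Cd27*, is listed at 0 in every library.

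Promoter windows of 300 bases, 250 before and 50 after a start site, were taken from RefSeq (GRCm38.p6) for 9 of the 10 genes, all but *Tnfrsf26*, and came to 11 in all since *Tnfrsf9* and *Tnfrsf25* each have 2 starts. Shown here are the 250 bases before the start of a neighboring pair that EpA moved in opposite directions, *Tnfrsf8* and *Tnfrsf1b*, and of *Tnfrsf25*, the gene that rose by the largest factor with EpA (its first start). Each is written 5′ to 3′ on the strand of its gene, with matches to the searched motifs in capitals. The stretches are chr4:145315165-145315414 (minus strand), chr4:145246871-145247120 (minus strand), and chr4:152115684-152115933 (plus strand).
Tnfrsf8: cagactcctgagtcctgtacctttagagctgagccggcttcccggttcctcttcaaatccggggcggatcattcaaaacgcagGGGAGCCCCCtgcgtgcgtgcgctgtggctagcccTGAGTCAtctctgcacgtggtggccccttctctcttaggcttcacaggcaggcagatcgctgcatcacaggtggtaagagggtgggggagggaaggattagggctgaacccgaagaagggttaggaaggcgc
Tnfrsf1b: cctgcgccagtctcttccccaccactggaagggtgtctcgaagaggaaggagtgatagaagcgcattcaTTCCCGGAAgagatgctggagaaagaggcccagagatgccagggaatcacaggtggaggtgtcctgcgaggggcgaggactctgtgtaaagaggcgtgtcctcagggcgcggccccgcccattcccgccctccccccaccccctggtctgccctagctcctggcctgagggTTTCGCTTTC
Tnfrsf25: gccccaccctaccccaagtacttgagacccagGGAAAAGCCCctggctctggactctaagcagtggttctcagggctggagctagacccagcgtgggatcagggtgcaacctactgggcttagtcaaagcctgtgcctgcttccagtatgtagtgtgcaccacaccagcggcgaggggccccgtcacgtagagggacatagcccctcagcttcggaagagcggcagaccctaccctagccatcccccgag
The capitals in *Tnfrsf8* are a κB form (GGG, 3 bases, and TCCC on the other strand) 167 bases before the start and an AP-1 motif (TGANTCA) 132 bases before it. Those in *Tnfrsf1b* are a STAT motif (TTCNNNGAA) 181 bases before the start and an IRF motif (GAAA, 2 bases, and GAAA on the other strand) 10 bases before it. *Tnfrsf25* holds 1 stretch that matches 2 overlapping κB forms (GGG and TTTCC with 2 bases between, or GGG and TTCC with 3, on the other strand), 218 bases before the start.

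In all, 11 motifs were searched on both strands of the 32851 windows of RefSeq, and matches describe letters and not binding. AP-1 motifs were found in 7.81% of all windows and in 2 of the 9 genes, *Tnfrsf8* and *Tnfrsf9*. The κB forms were GGG with TTTCC after 2 bases, GGG with TCCC after 3 bases, and GGG with TTCC after 3 bases, which overlap each other. They were found in 1.63%, 5.55%, and 5.56% of windows and each in 2 of the genes, and *Tnfrsf9* held all 3. STAT motifs were found in 8.298% of windows and in 5 genes, *Tnfrsf18*, *Tnfrsf1a*, *Tnfrsf1b*, *Tnfrsf25*, and *Tnfrsf9*. The STAT match of *Tnfrsf25* lies at its other start, whose sequence is not shown. Shares count windows, whereas a gene was counted if any of its windows matched. The IRF motif was in 3.44% of windows, the NFAT motif TGGAAA in 21.4% and in *Tnfrsf4* and *Tnfrsf9*, and CCAAT in 37.4% and in *Tnfrsf9*. The sterol element TCACNCCAC, a form bound by SREBP (1.24% of windows), the cAMP response element TGACGTCA (1.79%), and the GATA motif AGATAA (11.2%) were not among the letters of the windows of the 9 genes.

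EpA raised 5 of the 10 receptors and lowered 4. *Tnfrsf4*, *Tnfrsf18*, *Tnfrsf9*, *Tnfrsf8*, and *Tnfrsf25* were higher with EpA, and *Cd27*, *Tnfrsf1a*, *Tnfrsf1b*, and *Tnfrsf26* were lower, when compared with DMSO (limma on log2(FPKM + 0.1), adjusted p below 0.05 over all 13733 genes). The changes were small, at most 1.34-fold up and 1.37-fold down, so that 0 of the 10 reached the 1.5-fold threshold of the study's methods, in limma and in voom alike. Among all genes tested, 27.4% had an adjusted p below 0.05 (14.3% higher and 13.1% lower), and 3.38% were also past 1.5-fold. The values of the 3 EpA and the 3 DMSO libraries did not overlap for 10 of the 10 receptors, against 42.4% of all genes tested. At an unadjusted p below 0.05, 9 of the 10 passed (37.5% of all genes), and 9 did with voom on the recovered reads (29.6% of all genes). The median log2 fold change of the 10 was 0.12, against 0.0023 over all genes tested. The fitted changes were above 0 for 6 of the 10, *Ltbr* included, and below 0 for the others. This median therefore does not describe a shift shared by the receptors.

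Among the costimulatory receptors, *Tnfrsf4*, which encodes OX40, had 164, 168, and 167 FPKM in the DMSO libraries, 190.4, 185, and 189.8 in the EpA libraries, 167, 171, and 176 in the fatostatin libraries, and 193, 193, and 195 in the libraries with both compounds. Every library with EpA was above every library without it, and the DMSO and fatostatin libraries overlapped. EpA raised *Tnfrsf4* by 0.18 on the log2 scale (SE 0.02101, adjusted p = 8.02e-05 by limma), or 13.3% of its mean. The neighboring *Tnfrsf18*, which encodes the receptor GITR, had 72.1, 67.5, and 71.97 FPKM in the DMSO libraries, 82.6, 84.3, and 85.4 in the EpA libraries, 76.3, 79.4, and 78.3 in the fatostatin libraries, and 86.2, 88.2, and 90.5 in the libraries with both compounds. These groups did not overlap, in the order DMSO, fatostatin, EpA, and both compounds. The change with EpA was 0.25 (SE 0.0287, adjusted p = 6.35e-05 by limma). *Tnfrsf9*, whose product CD137 is a marker of recent activation, had 66.2, 67.2, and 67.7 FPKM in the DMSO libraries, 72.3, 71.9, and 70.2 in the EpA libraries, 64.9, 68.2, and 66.2 in the fatostatin libraries, and 79.1, 76.9, and 77.02 in the libraries with both compounds. Its EpA libraries stood just above the DMSO libraries, a log2 fold change of 0.091 (SE 0.0219, adjusted p = 0.00911 by limma). OX40 and GITR are also abundant on regulatory T cells, and the summed level of *Foxp3* and *Ikzf2*, both above 0 in every library, was 2.86 to 3.11 FPKM in DMSO libraries and 1.77 to 2.11 FPKM in EpA libraries. It was 2.98 to 3.18 FPKM with fatostatin and 1.84 to 1.998 FPKM with both compounds, and the part of regulatory T cells in these results was not tested.

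*Tnfrsf8*, the gene of CD30, had 96.1, 92.9, and 94.7 FPKM in the DMSO libraries, 105, 107, and 103 in the EpA libraries, 70.2, 70.1, and 68.7 in the fatostatin libraries, and 79.8, 78.5, and 79.6 in the libraries with both compounds. The 4 groups were all apart, with EpA highest and fatostatin alone lowest. Its rise with EpA was 0.15 (SE 0.0194, adjusted p = 0.000152 by limma). *Tnfrsf25*, the gene of the TL1A receptor DR3, was covered by 287 to 493 reads per library and had 3.995, 3.396, and 3.26 FPKM in the DMSO libraries, 4.63, 4.55, and 5.11 in the EpA libraries, 3.296, 3.16, and 4.09 in the fatostatin libraries, and 4.402, 4.53, and 4.76 in the libraries with both compounds. The 6 libraries with EpA stood above the 6 without it. The rise of *Tnfrsf25* with EpA was 0.42 (SE 0.0982, adjusted p = 0.00842 by limma), the largest increase among the 10, although its 95% interval of 0.20 to 0.63 was wide.

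*Cd27*, the receptor for CD70 found on naive and many memory T cells, had 8.68, 9.21, and 7.97 FPKM in the DMSO libraries, 6.598, 6.82, and 6.77 in the EpA libraries, 8.03, 7.87, and 8.18 in the fatostatin libraries, and 6.71, 6.69, and 6.32 in the libraries with both compounds. All libraries with EpA were below all libraries without it, and EpA lowered *Cd27* (log2 fold change -0.35, SE 0.0483, adjusted p = 0.000274 by limma). Of the CD4+ T cell markers, *Cd3e*, *Cd3d*, *Lck*, and *Cd28* were lower with EpA, whereas *Cd4* rose from 78.2 to 86.8 FPKM (adjusted p = 7.7e-05 by limma). *Cd8a* went from 1.81 FPKM in DMSO to 0.802 FPKM in EpA libraries while *Cd8b1* stood at 7.6 and 7.47 FPKM, and the part of these markers in the fall of *Cd27* was not tested. *Tnfrsf1b*, the gene of TNFR2, had 26.96, 25.4, and 25.2 FPKM in the DMSO libraries, 21.8, 21.01, and 20.9 in the EpA libraries, 24.1, 24.5, and 24.7 in the fatostatin libraries, and 20.3, 19.7, and 19.4 in the libraries with both compounds. Its groups were all apart, and it fell with EpA (log2 fold change -0.28, SE 0.0301, adjusted p = 4.27e-05 by limma), in the opposite direction to its neighbor *Tnfrsf8*. *Tnfrsf1a*, the gene of TNFR1, had 11.5, 11.9, and 12.4 FPKM in the DMSO libraries, 9.85, 11.1, and 10.7 in the EpA libraries, 10.8, 11.2, and 11.9 in the fatostatin libraries, and 9.82, 10.1, and 9.68 in the libraries with both compounds. Its DMSO libraries were above the EpA libraries, while each group overlapped with the next in the order of means. The change was -0.18 (SE 0.04901, adjusted p = 0.0204 by limma), and *Tnfrsf1a* did not pass without replicate 2 of DMSO (adjusted p = 0.051 by limma), without replicate 3 of DMSO (0.08), or without replicate 1 of EpA (0.0794).

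*Tnfrsf26*, a receptor gene of mice that lies beside the related *Tnfrsf22* and *Tnfrsf23*, was covered by 314 to 647 reads per library. It had 3.29, 3.32, and 3.61 FPKM in the DMSO libraries, 2.45, 2.52, and 2.37 in the EpA libraries, 4.53, 4.05, and 4.196 in the fatostatin libraries, and 3.05, 3.26, and 3.22 in the libraries with both compounds. The 4 groups did not overlap, with fatostatin highest and EpA lowest. The fall with EpA, a log2 fold change of -0.46 (SE 0.0576, adjusted p = 0.000141 by limma), was the largest decrease among the 10. The antisense gene that overlaps its exons was at 0.158 FPKM in DMSO and 0.0673 FPKM in EpA libraries, and the part of its reads in this result was not tested. The neighbor *Tnfrsf22*, named after its values were seen, did not pass, with 2.63 and 2.69 FPKM (log2 fold change 0.029, adjusted p = 0.833 by limma). *Ltbr* had 0.325, 0.354, and 0.293 FPKM in the DMSO libraries, 0.427, 0.363, and 0.421 in the EpA libraries, 0.278, 0.469, and 0.357 in the fatostatin libraries, and 0.3899, 0.327, and 0.353 in the libraries with both compounds. Its EpA libraries were above the DMSO libraries, but its change of 0.25 had a 95% interval of -0.11 to 0.61 and did not pass (adjusted p = 0.305 by limma).

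**Figure D2:**
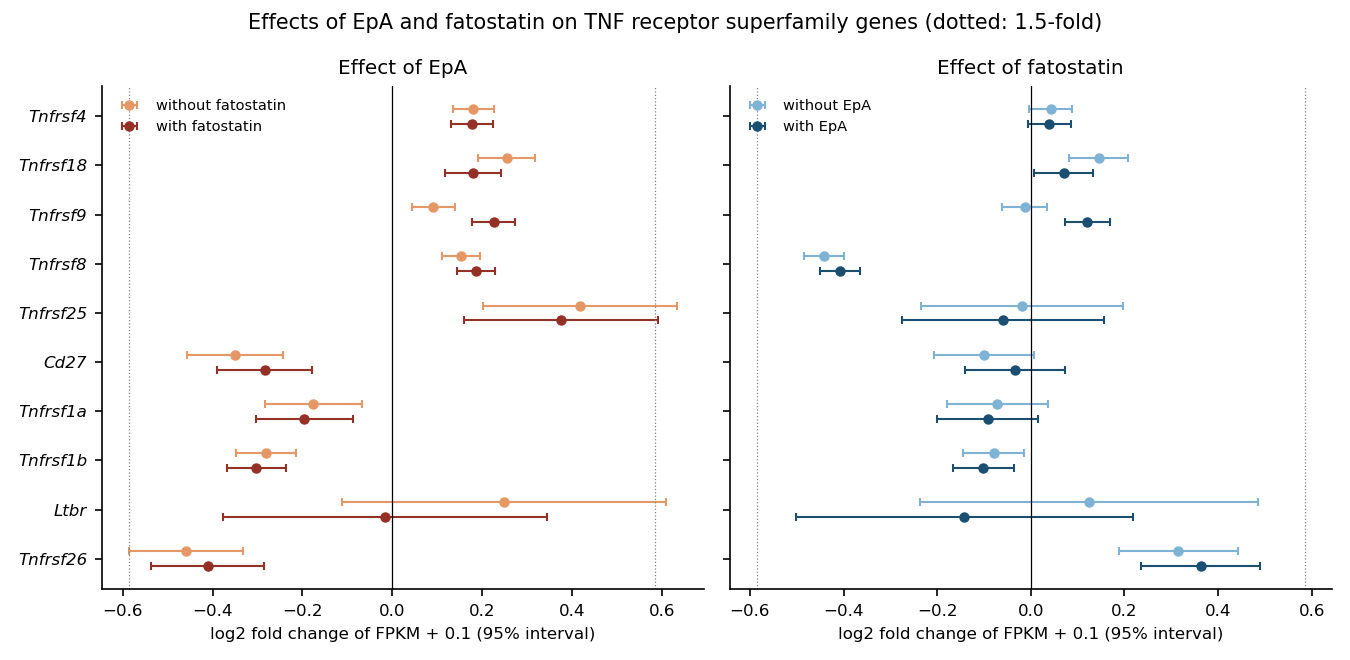
Log2 fold change of FPKM + 0.1 (horizontal axes) of each receptor gene with EpA (left) and with fatostatin (right), with 95% intervals from limma. Each effect is shown without and with the other compound, and the dotted lines mark 1.5-fold. The EpA effects lie from -0.46 for *Tnfrsf26* to 0.42 for *Tnfrsf25*, and *Tnfrsf8* has the largest fatostatin effect in size, -0.44 and -0.41.

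Fatostatin alone changed 3 of the 10 receptors, of which the gene of CD30 moved furthest. Compared with DMSO, *Tnfrsf8* was lower and *Tnfrsf18* and *Tnfrsf26* were higher, so that 3 of the 10 passed, against 14% of all genes tested (7.69% higher and 6.31% lower). The 3 fatostatin and 3 DMSO libraries were apart for 4 of the 10, against 31.3% of all genes, and 0 of the 10 passed 1.5-fold, against 1.86%. An unadjusted p below 0.05 was found for 4 of the 10 (26.8% of all genes), and voom called 3 (16.7%). *Tnfrsf8* fell from 94.6 ± 1.61 to 69.6 ± 0.836 FPKM (SD, n = 3), -0.44 in log2 terms (SE 0.0194, adjusted p = 6.16e-08 by limma). *Tnfrsf18* rose by 0.14 (adjusted p = 0.00596 by limma) and *Tnfrsf26* by 0.32 (adjusted p = 0.00353 by limma). The neighbor of *Tnfrsf18*, *Tnfrsf4*, did not pass, with a change of 0.043 and a 95% interval of -0.0033 to 0.089. *Tnfrsf1b* did not pass either (-0.08, adjusted p = 0.112 by limma), although its libraries were apart. *Cd27* had a change of -0.10 (adjusted p = 0.213 by limma), which passed without replicate 3 of DMSO (-0.15, adjusted p = 0.0419 by limma).

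In the presence of EpA, fatostatin again lowered *Tnfrsf8* and raised *Tnfrsf26*. Of the 10 receptors, 4 differed between the cells with both compounds and those with EpA alone, 2 higher and 2 lower, against 16% of all genes tested (9.22% higher and 6.79% lower). Libraries were apart for 6 of the 10, against 33.3% of all genes, and 0 passed 1.5-fold, against 1.99%. At an unadjusted p below 0.05 the count was 5 (28.7% of all genes), and 4 with voom (19.3%). *Tnfrsf8* fell from 105 ± 2.03 to 79.3 ± 0.685 FPKM (SD, n = 3), -0.41 in log2 terms (adjusted p = 1.45e-07 by limma). *Tnfrsf26* rose from 2.45 ± 0.0743 to 3.18 ± 0.112 FPKM (SD, n = 3), 0.36 in log2 terms (adjusted p = 0.00136 by limma), and *Tnfrsf9* rose by 0.12 (adjusted p = 0.00311 by limma). *Tnfrsf1b* was also lower (log2 fold change -0.10, adjusted p = 0.0423 by limma), and it did not pass in 13 of the other settings, among them TPM scaling (adjusted p = 0.0768 by limma) and 9 of the 12 fits that left out 1 library.

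On the background of fatostatin, EpA changed the same 9 receptors in the same directions as it did without fatostatin, 5 higher and 4 lower. These 9 of 10 stand against 29.5% of all genes tested (16.2% higher and 13.3% lower), and the libraries were apart for 9 of the 10, against 41.4%. The count past 1.5-fold was 0 (3.75% of all genes), and 9 passed both at an unadjusted p below 0.05 (39.6%) and with voom (32.9%). The log2 fold changes were 0.18 for *Tnfrsf4*, 0.18 for *Tnfrsf18*, 0.23 for *Tnfrsf9*, 0.19 for *Tnfrsf8*, and 0.38 for *Tnfrsf25*. For the receptors that fell they were -0.28 for *Cd27*, -0.20 for *Tnfrsf1a*, -0.30 for *Tnfrsf1b*, and -0.41 for *Tnfrsf26*. The limma adjusted p of these 9 ranged from 1.76e-05 for *Tnfrsf9* to 0.0137 for *Tnfrsf25*, which reached 0.05003 without replicate 1 of fatostatin and 0.0561 without replicate 2. *Ltbr* did not pass, with a change of -0.017 (95% interval -0.38 to 0.34). These 2 EpA comparisons set different libraries against each other, but 1 fit over all 12 libraries gave both the same estimate of the spread. Their p-values are therefore not independent.

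The effect of EpA was then compared between cultures with and without fatostatin, as a difference of log2 fold changes. By limma, 0 of the 10 receptors passed this test, against 0.0437% of all genes (0.0364% higher and 0.00728% lower, 6 genes). At an unadjusted p below 0.05 there was 1 of the 10 (7.89% of all genes), and by voom there were 0 (0.146%). That gene was *Tnfrsf9*, which EpA raised by 0.091 without fatostatin and by 0.23 with it, a difference of 0.13 (95% interval 0.066 to 0.20, limma unadjusted p = 0.00116, adjusted p = 0.301). For *Tnfrsf8* the difference was 0.034 (95% interval -0.027 to 0.094), and for *Tnfrsf4* -0.0031 (-0.069 to 0.062). The interval of *Tnfrsf25* was wider, -0.35 to 0.26. A p that misses the threshold does not show that the effects were equal.

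With both compounds, 8 of the 10 receptors differed from DMSO, against 35.5% of all genes (19.7% higher and 15.8% lower), and libraries were apart for 9 of the 10, against 46.4%. *Tnfrsf4*, *Tnfrsf18*, *Tnfrsf9*, and *Tnfrsf25* were higher, and *Tnfrsf8*, *Cd27*, *Tnfrsf1a*, and *Tnfrsf1b* were lower. Past 1.5-fold there were 0 (5.64% of all genes), while 8 passed at an unadjusted p below 0.05 (43.7%) and 8 with voom (38.2%). *Tnfrsf18* rose from 70.5 ± 2.59 to 88.3 ± 2.14 FPKM (SD, n = 3), 0.32 in log2 terms (adjusted p = 5.55e-06 by limma). *Tnfrsf1b* fell from 25.9 ± 0.962 to 19.8 ± 0.463 FPKM (SD, n = 3), -0.38 in log2 terms (adjusted p = 2.27e-06 by limma). *Tnfrsf8*, which the compounds moved in opposite directions, ended below DMSO with a log2 fold change of -0.25 (adjusted p = 1.77e-06 by limma). *Tnfrsf26*, which they also moved in opposite directions, did not pass (-0.096, 95% interval -0.22 to 0.031). *Tnfrsf25* had a change of 0.36 (adjusted p = 0.0145 by limma), which did not pass without replicate 3 of DMSO (adjusted p = 0.0593 by limma) or replicate 3 of both compounds (0.0503). This comparison shares its DMSO libraries with those of each compound alone.

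Among the ligands of these receptors were larger changes than any of the 10 receptors showed, in *Lta* with EpA and in *Tnfsf4* and *Tnfsf8* with fatostatin. Of 10 ligand genes, 7 were tested, and the other 3, *Tnfsf15*, *Tnfsf18*, and *Cd70*, the ligands of DR3, GITR, and CD27, were below the minimum. With EpA, 3 of the 7 were higher (*Tnf*, *Lta*, and *Tnfsf8*) and 1 lower (*Tnfsf4*), and with fatostatin 3 were higher (*Ltb*, *Tnfsf4*, and *Tnfsf8*) and 0 lower. These 3 and *Lta* were higher, and 0 lower, when fatostatin was added to EpA. When EpA was added to fatostatin, 5 were higher (*Tnf*, *Lta*, *Ltb*, *Tnfsf8*, and *Tnfsf9*) and 1 lower (*Tnfsf4*), and with both compounds against DMSO, 5 were higher (*Tnf*, *Lta*, *Ltb*, *Tnfsf4*, and *Tnfsf8*) and 0 lower. Over all genes tested, 27.4%, 14%, 16%, 29.5%, and 35.5% passed in these comparisons, in this order. At an unadjusted p below 0.05 by limma, the counts of 0 were 1 for fatostatin, namely *Tnfsf9*, and 0 for the other comparisons, and with voom they were 0. The fitted change with EpA was above 0 for 6 of the 7, with a median log2 fold change of 0.26 against 0.0023 over all genes tested, and the median was 0.12 against 0.0053 with fatostatin. *Tnfsf8*, which encodes CD30 ligand, had 36.7, 38.6, and 36.9 FPKM in the DMSO libraries, 49.9, 50.2, and 48.99 in the EpA libraries, 72.5, 69.5, and 70.97 in the fatostatin libraries, and 89.5, 89.1, and 85.2 in the libraries with both compounds. Its groups did not overlap, and fatostatin raised it by 0.92 (SE 0.0264, adjusted p = 2.57e-09 by limma) while it lowered the receptor gene *Tnfrsf8*. EpA raised *Tnfsf8* as well as its receptor, by 0.41 (SE 0.0264, adjusted p = 1.01e-06 by limma).

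*Lta*, the lymphotoxin α gene, whose product binds both TNF receptors, had 16.4, 16.7, and 15.6 FPKM in the DMSO libraries, 41.4, 42.2, and 41.8 in the EpA libraries, 16.4, 18.3, and 18.3 in the fatostatin libraries, and 50.6, 55.3, and 56.04 in the libraries with both compounds. The libraries with EpA were all above those without it, and DMSO and fatostatin overlapped. EpA raised *Lta* by 1.36 without fatostatin and by 1.61 with it (adjusted p = 9.03e-09 and 2.7e-09 by limma), and the difference between these effects did not pass (0.25, adjusted p = 0.364 by limma). *Tnf* rose with EpA from 4.099 ± 0.375 to 5.801 ± 0.326 FPKM (SD, n = 3), 0.49 in log2 terms (adjusted p = 0.00281 by limma), whereas the genes of both of its receptors fell. With fatostatin *Tnf* had a change of -0.069 (adjusted p = 0.716 by limma). *Tnfsf4*, which encodes OX40 ligand and was named after its values were seen, had 7.42, 6.696, and 6.33 FPKM in the DMSO libraries, 6.09, 5.504, and 5.49 in the EpA libraries, 19.4, 18.4, and 18.4 in the fatostatin libraries, and 13.6, 13.4, and 13.7 in the libraries with both compounds. The groups were all apart, with the fatostatin libraries highest and EpA lowest. Fatostatin raised *Tnfsf4* by 1.45 (SE 0.0559, adjusted p = 2.64e-08 by limma), while *Tnfrsf4* did not pass, and EpA lowered it (log2 fold change -0.25, SE 0.0559, adjusted p = 0.00576 by limma), while *Tnfrsf4* rose. OX40 ligand is made by antigen-presenting cells and by activated T cells, and the summed myeloid and dendritic markers were 0.341 to 0.603 FPKM in DMSO, 0.656 to 0.680 FPKM in EpA, 0.629 to 0.657 FPKM in fatostatin, and 0.617 to 0.755 FPKM in libraries with both compounds. The B cell markers summed to 0.890 to 1.03, 0.535 to 0.813, 1.02 to 1.185, and 1.07 to 1.18 FPKM in the same order, and the part of such cells in the level of *Tnfsf4* was not tested.

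**Figure D3:**
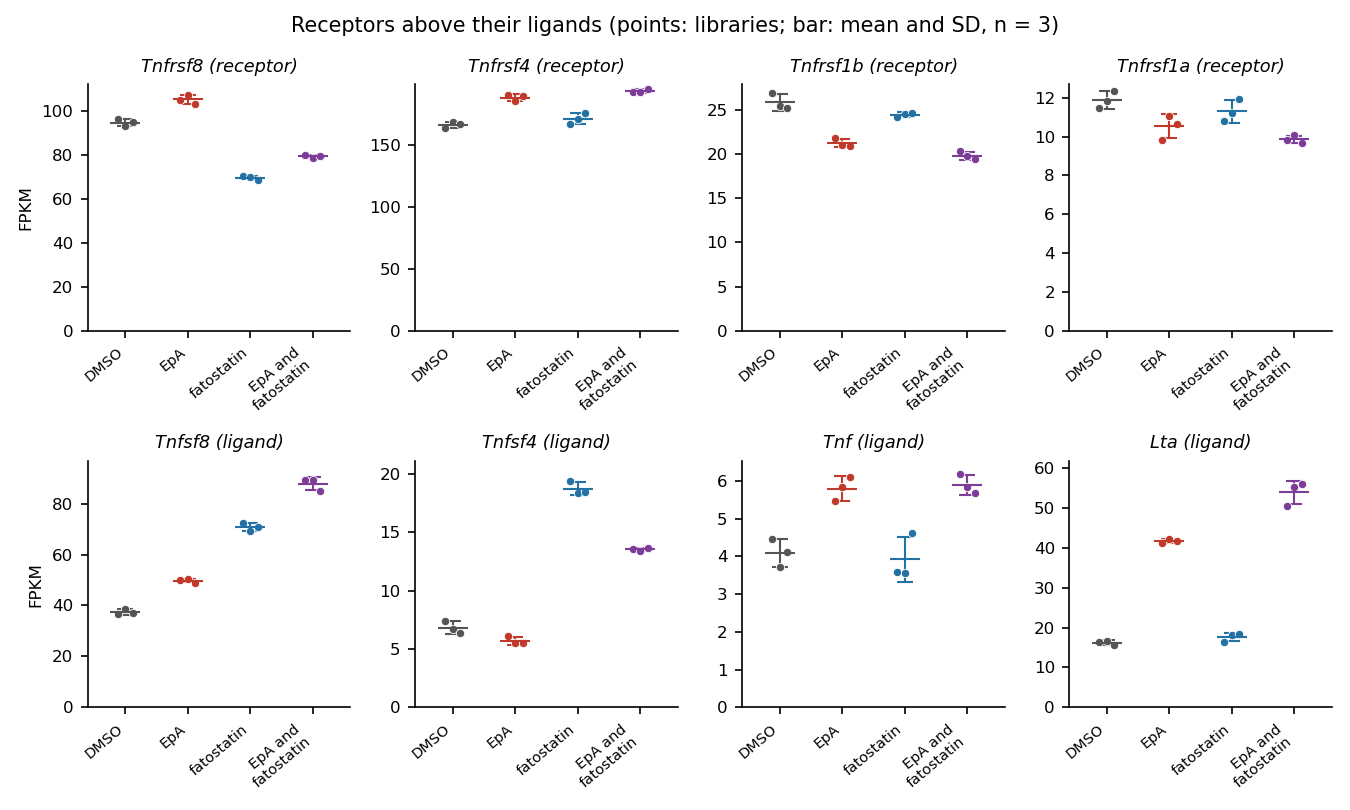
Levels in FPKM (vertical axes, from 0) of 4 receptor genes (top) and a ligand gene of each (bottom) in the 4 groups. Points are libraries, and bars give the mean and SD of 3. *Tnfsf8* and *Tnfsf4* are higher with fatostatin than with DMSO, *Tnf* and *Lta* are higher with EpA, and *Tnfrsf8* is lower with fatostatin.

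Among 18 other receptors of the superfamily, 13 were tested. With EpA, 3 were higher (*Tnfrsf10b*, *Tnfrsf11b*, and *Tnfrsf21*) and 1 lower (*Fas*), and with fatostatin 4 were higher (*Fas*, *Cd40*, *Tnfrsf10b*, and *Eda2r*) and 0 lower. With fatostatin on top of EpA, these 4 and *Tnfrsf11b* were higher and 0 lower. With EpA on top of fatostatin, 4 were higher (*Tnfrsf10b*, *Tnfrsf11b*, *Tnfrsf12a*, and *Tnfrsf21*) and 1 lower (*Fas*), and with both compounds against DMSO 6 were higher and 0 lower. The shares of all genes that passed were 27.4%, 14%, 16%, 29.5%, and 35.5% in the same order, so that the 4 of 13 with EpA were near the background. At an unadjusted p below 0.05 by limma, the counts of 0 were 1 with fatostatin (*Tnfrsf12a*), 0 with fatostatin on top of EpA, and 1 with both (*Tnfrsf13c*), and with voom they were 0. Their median log2 fold change was 0.029 with EpA and 0.24 with fatostatin, beside 0.0023 and 0.0053 over all genes tested. *Tnfrsf10b*, the death receptor for TRAIL, rose from 3.42 ± 0.265 FPKM in DMSO to 4.61 ± 0.255 with EpA, 6.62 ± 0.246 with fatostatin, and 8.28 ± 0.395 with both (SD, n = 3; adjusted p = 0.000434, 1.89e-06, and 5.24e-08 by limma). *Fas*, the death receptor for Fas ligand, fell from 13.2 ± 0.529 to 10.2 ± 0.348 FPKM with EpA and rose to 19.5 ± 1.18 FPKM with fatostatin (SD, n = 3; adjusted p = 0.00188 and 0.00021 by limma), the same directions as *Tnfrsf26*. *Tnfrsf21*, the gene of DR6, rose with EpA from 0.315 ± 0.0287 to 0.534 ± 0.0664 FPKM (SD, n = 3; adjusted p = 0.00964 by limma) on 44 to 100 reads per library. *Tnfrsf13b*, the TACI gene, was named after its values were seen, since its level was the highest of the 13, with 58.5, 57.9, 58.9, and 59.8 FPKM in DMSO, EpA, fatostatin, and both. It did not pass in any of the comparisons.

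All 15 adaptors and regulators that act below the receptors were tested. Of these, 5 were higher (*Traf1*, *Traf4*, *Traf6*, *Birc3*, and *Tnfaip3*) and 0 lower with EpA, and 4 were higher (*Traf1*, *Traf4*, *Tnfaip3*, and *Tank*) and 0 lower with fatostatin. Against EpA alone, both compounds had these last 4 and *Birc3* higher and 0 lower. Against fatostatin alone 6 were higher and 2 lower (*Traf5* and *Tank*), and against DMSO 6 were higher and 1 lower (*Traf5*). Of all genes tested, 27.4%, 14%, 16%, 29.5%, and 35.5% passed in the same order, and the 5 of 15 with EpA were near this background. At an unadjusted p below 0.05 by limma, the counts of 0 were 0 with EpA, 1 with fatostatin (*Traf2*), and 1 with both compounds against EpA (*Traf5*), which voom also called, while the other counts were 0 with voom. For both compounds, voom called 3 lower against fatostatin (*Ripk1*, *Traf5*, and *Tank*) and 3 lower against DMSO (*Traf5*, *Fadd*, and *Cyld*). It called 7 higher against EpA. Of all genes, voom called 32.9%, 38.2%, and 19.3% in these comparisons. As a median, the log2 fold change was -0.018 with EpA and 0.07 with fatostatin, beside 0.0023 and 0.0053 over all genes tested. *Traf4*, a TRAF family adaptor, rose with EpA from 11.1 ± 0.389 to 14.4 ± 0.242 FPKM (SD, n = 3), 0.37 in log2 terms (adjusted p = 1.5e-05 by limma) and reached 17.7 ± 0.587 FPKM with both compounds. *Traf1*, an adaptor that joins TRAF2 at CD137 and CD30, went from 7.58 ± 0.155 to 9.66 ± 0.164 FPKM (SD, n = 3), 0.35 in log2 terms (adjusted p = 2.62e-05 by limma) and to 11.3 ± 0.349 FPKM with both. *Birc3*, the ubiquitin ligase cIAP2 of these complexes, rose from 16.5 ± 0.551 to 18.3 ± 0.336 FPKM (SD, n = 3), 0.15 in log2 terms (adjusted p = 0.00175 by limma). In each of these 3 cases the EpA libraries lay above the DMSO libraries without overlap.

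The receptors with the largest range of the 4 group means were *Tnfrsf26* (0.77 on the log2 scale), *Tnfrsf8* (0.59), and *Tnfrsf25* (0.44). For each, the 3 genes with the most similar log2 values were taken from the 10289 genes whose mean reached 1 FPKM, as a description over 12 libraries that form 4 groups. Closest to *Tnfrsf26* were *Nlrc5* (Pearson's r = 0.985), an activator of MHC class I genes, *Arhgap26* (r = 0.985), and *Cblb* (r = 0.985), a ubiquitin ligase that restrains T cell activation. *Cblb* stood at 10.6 FPKM in DMSO, 7.45 with EpA, 13.9 with fatostatin, and 9.96 with both. Closest to *Tnfrsf8* were *Il10* (r = 0.995), *Cpox* (r = 0.987), an enzyme of heme synthesis, and *Gpr55* (r = 0.986), a lysophospholipid receptor. *Il10*, the gene of the regulatory cytokine IL-10, stood at 110.1 FPKM in DMSO, 137 with EpA, 53.7 with fatostatin, and 71.2 with both, a wider range than that of *Tnfrsf8*. Closest to *Tnfrsf25* were *Slc16a1* (r = 0.951), a lactate transporter, *Tnf* (r = 0.946), and *Nip7* (r = 0.946), a ribosome biogenesis factor.

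**Figure D4:**
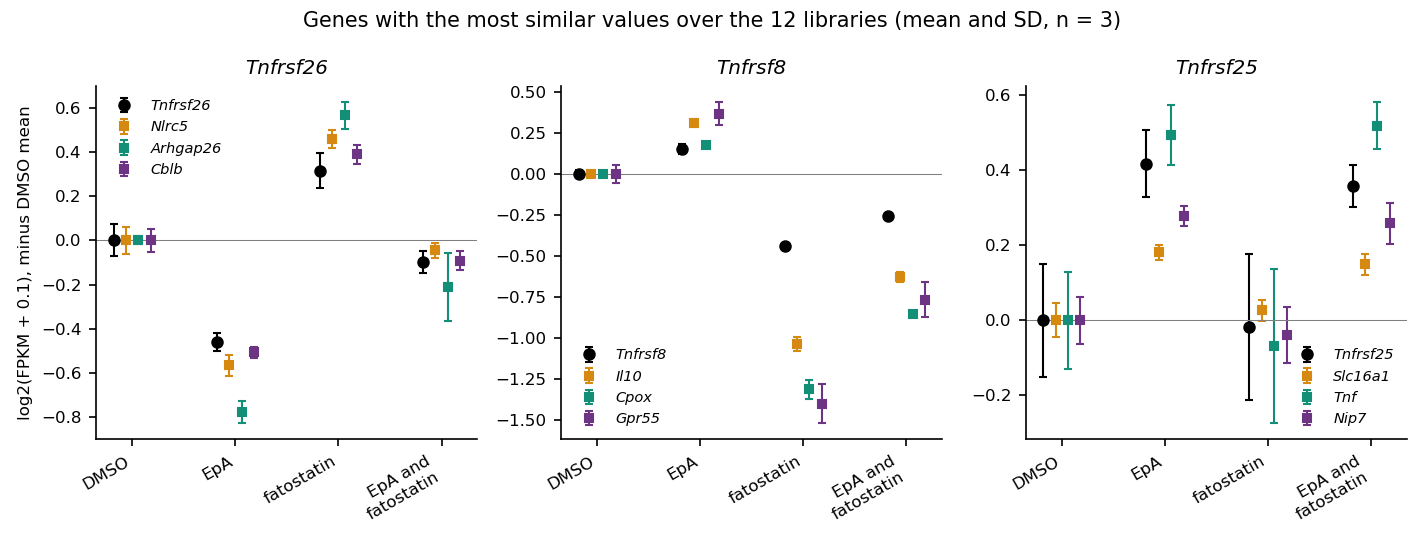
Log2(FPKM + 0.1) minus the DMSO mean (vertical axes) in the 4 groups for *Tnfrsf26*, *Tnfrsf8*, and *Tnfrsf25* (black circles) and the 3 genes with the most similar values (colored squares). Symbols and bars give the mean and SD of 3 libraries. *Tnfrsf8* and its 3 genes are highest with EpA and lowest with fatostatin, and *Tnfrsf26* and its 3 genes are lowest with EpA and highest with fatostatin.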

How the data were processed

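RNA-seq of Th9 cells on day 4 was analyzed in 4 groups of 3 libraries, grouped by the treatment in the labels. Libraries were made with a TruSeq kit per the labels. Per the methods, the authors sequenced them as read pairs, used Trim Galore for trimming, HISAT2 for alignment to GRCm38, and featureCounts for counts per gene, and deposited FPKM. The annotation release and the use of strand are not given in the sources used here. Of 32352 lines, 301 repeated a gene with identical values, which left 32051 genes, 99.9% of them with a position in a GENCODE annotation of GRCm38.

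FPKM were transformed to log2(FPKM + 0.1), which understates the change of low genes. The 13733 genes whose mean reached 0.1 FPKM were fitted in R 4.3.3 with limma 3.58.1, as 1 mean per group over 12 libraries with an intensity trend. Two-sided p-values were corrected over all of them (Benjamini-Hochberg), and a gene passed at an adjusted p below 0.05. A two-sided exact permutation test of 3 against 3 cannot go below p = 0.1, so single genes were reported with limma. Divided by the value of 1 read, 98.4% to 98.6% of the FPKM of a library came out whole (within 0.05 reads), and voom of limma on these reads was an alternative, as were other pseudocounts, minimums, scalings, fits, and each library left out. Genes with 2 reads (median 1072.5 per library) outnumbered those with 1 (500.5), as where both mates count.

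All 10 receptors are named. Of the lists of other receptors, ligands, and adaptors, the 3 genes with the smallest adjusted p for EpA against DMSO are named, and other genes of these lists were named after their values were seen. Likeness was ranked by Pearson's r over 12 libraries. The receptors, lists, markers, and tests were chosen with earlier results of these data known. The methods were tested on simulated data.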

Additional observations from a re-analysis of the deposited data

How the results depend on the processing

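Each group held 3 libraries, and *Ltbr* had the fewest reads of the 10 receptors (28 to 44 per library). Over the settings other than leaving out a library, 669 values of single genes kept their direction and side of the threshold, and 4 no longer passed, all for *Tnfrsf1b* in both compounds against EpA. Over the fits that left out 1 library, 794 kept both, 16 no longer passed, 17 changed sign, and 1 newly passed. The scalings moved the median log2 fold change of all genes by less than 0.1.

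In both compounds against EpA, the receptors called lower went from 2 to 1 with no minimum, TPM scaling, only the compared groups in the fit, or no intensity trend, and were 1 to 2 with a library left out. In fatostatin against DMSO they were 1 to 2 with a library left out, and 2 without replicate 3 of DMSO. At a threshold of 1.2-fold, the receptors called were 4 for EpA against DMSO, 2 for fatostatin against DMSO, 2 for both against EpA, 4 for both against fatostatin, and 5 for both against DMSO, in place of 0. Over all genes, the counts past 1.5-fold were 464, 255, 273, 515, and 775 in this order. They were 141, 89, 84, 161, and 285 with a pseudocount of 1, 216, 143, 147, 252, and 389 with a minimum mean of 1 FPKM, and 1494, 724, 848, 1688, and 2267 at 1.2-fold. For the test of whether the EpA effects differ, the 6 genes that passed became 10 with a pseudocount of 0.01, 2 with TPM scaling, 0 with median ratio scaling, 0 with the replicate block, 20 with voom, and 0 to 2 with a library left out. Past 1.5-fold this count of 0 became 1 with a pseudocount of 1, TPM scaling, no minimum, or voom, 2 with a pseudocount of 0.01 or no intensity trend, 4 at 1.2-fold, and 0 to 2 with a library left out. The causes were not tested.

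Changes of sign came only with a library left out, in values that had not passed. In fatostatin against DMSO they were *Tnfrsf9* (-0.032 to 0.0036), *Tnfrsf25* (-0.13 to 0.068), and *Ltbr* (-0.027 to 0.27). In both compounds against fatostatin it was *Ltbr* (-0.16 to 0.13). In the difference between the effects of EpA they were *Tnfrsf1a* (-0.067 to 0.018), *Tnfrsf4* (-0.022 to 0.017), and *Tnfrsf25* (-0.13 to 0.069).

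The replicate numbers did not pair the libraries. Over 18 pairs of same-numbered libraries the deviations from the group means correlated with r of -0.047 to 0.074, 0 of them above 0.1, and 5 of 12 libraries were closest to their own number. This cannot exclude a factor that acts on part of the genes. The summed FPKM was lowest in replicate 1 of fatostatin (280099) and of both compounds (279720). In replicate 1 of DMSO and of EpA it was 285933 and 284242. With the replicate number as a block, 3660 genes passed for EpA against DMSO in place of 3759, 5 receptors were still called higher and 4 lower, and the block changed no call of a receptor in any comparison.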
